A study of Arabidopsis thaliana with 6 samples.

Results

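The histone genes of Arabidopsis thaliana were followed in RNA sequencing libraries of green and of non-green seeds. They were taken as the rows of the deposited gene table whose short description begins with "histone H" or "Histone superfamily protein", in any letter case, which gave 50 of 32678 gene models. By a list of Arabidopsis histone loci, 43 of these 50 rows belong to a histone class, with 1 gene of linker histone H1, 12 of H2A, 10 of H2B, 12 of H3 and 8 of H4. The other 7 rows share only the wording. They are 4 genes described as histone H3 K4-specific methyltransferases of the SET7/9 family, and 3 genes of the histone superfamily that are in none of these classes, among them the embryo regulator gene LEC1. The description also misses 6 histone genes that the table words differently, namely H1.1, H1.2, HTA3, HTB2, HTR10 and HTR11, and these are described separately at the end.

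Green seeds carried the genotype label Atchlsyn1-1/CHLSYN, which pairs the chlorophyll synthase mutant allele with CHLSYN, and the yellow, non-green seeds the label Atchlsyn1-1. Seeds of both colours segregate in siliques of the mutant, from which they were taken and sorted, and growth conditions were the same for all. Each group had 3 libraries, whose counts summed to between 16438639 and 16745514. Neither the age of the seeds nor the number of plants per library is stated in the labels, and nothing says that the libraries came from separate plants, so the p-values below speak only of the scatter among these 6 libraries, which may be technical. The chlorophyll synthase gene CHLG had 46, 50 and 65 counts in the green set and 11, 6 and 9 in the non-green set (log2 fold change -2.69 ± 0.36 SE, edgeR adjusted p = 1.32e-09). All 9 seed and embryo maturation markers were well expressed, with summed levels of 294293 to 305852 CPM in the green set and 259489 to 270271 CPM in the non-green set. Most of each sum came from CRU3 (means of 173406 and 147905 CPM) and CRA1 (91029 and 84167 CPM). Of the 9 log2 fold changes 6 were positive and 3 negative. Of these 9, 4 were called higher and 3 lower in non-green seeds, where 14.2% and 12.5% of all genes tested were (26.6% in either direction).

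Histones package DNA: H2A, H2B, H3 and H4 form the nucleosome core, and H1 binds the linker between nucleosomes. Canonical histones such as H3.1 are made mainly in S phase, when DNA is copied, and their genes serve as markers of dividing cells. Replacement variants such as H3.3 and H2A.Z are made and deposited outside replication, so that cells that no longer divide keep renewing their chromatin with them. In the plant seed the embryo ends its divisions before it fills with reserves, and nuclei become compact as it dries. Plant histone mRNAs, unlike most of those of animals, carry poly(A) tails.

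Promoters of plant histone genes are known for an octamer motif, read here as CGCGGATC on one strand or GATCCGCG on the other. In the 250 bases upstream of the annotated gene start in RefSeq TAIR10.1, this motif was found in 9 of 43 histone genes (20.9%) and in 37 of 27443 protein-coding genes (0.135%). Of these 37, 9 are histone genes of the rule, 1 is H1.1, which lies outside the description rule, and 27 are other genes. It was found in 3 of 5 H3.1 genes, 2 of 4 canonical H2A genes, 1 of 3 H2A.W genes, 2 of 8 H4 genes, 1 of 3 H3.3 genes and 0 of 10 H2B genes. The windows of 6 genes are shown, 5 that carry the motif from the H2A, H3.1, H3.3 and H4 classes and 1, HTR8, that does not. They are written 5′ to 3′ toward the gene, with the motif in capitals. HTA10 lies at chr1:18926561-18926810, plus strand. HTR1 lies at chr5:26120582-26120831, minus strand. HTR2 lies at chr1:2972335-2972584, minus strand. The H4 gene AT1G07660 lies at chr1:2368583-2368832, plus strand. HTR5 lies at chr4:18558946-18559195, minus strand. HTR8 lies at chr5:3473571-3473820, minus strand.

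HTA10: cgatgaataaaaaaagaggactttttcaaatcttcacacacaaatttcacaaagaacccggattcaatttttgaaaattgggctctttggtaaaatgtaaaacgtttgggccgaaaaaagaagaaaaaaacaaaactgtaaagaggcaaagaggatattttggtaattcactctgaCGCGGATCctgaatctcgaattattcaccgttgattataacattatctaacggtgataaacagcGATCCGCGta

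HTR1: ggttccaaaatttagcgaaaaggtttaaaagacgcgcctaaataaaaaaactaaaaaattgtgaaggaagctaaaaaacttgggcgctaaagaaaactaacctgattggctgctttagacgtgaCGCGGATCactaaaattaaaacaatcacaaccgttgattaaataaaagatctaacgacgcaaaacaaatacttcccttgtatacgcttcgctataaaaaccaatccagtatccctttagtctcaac

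HTR2: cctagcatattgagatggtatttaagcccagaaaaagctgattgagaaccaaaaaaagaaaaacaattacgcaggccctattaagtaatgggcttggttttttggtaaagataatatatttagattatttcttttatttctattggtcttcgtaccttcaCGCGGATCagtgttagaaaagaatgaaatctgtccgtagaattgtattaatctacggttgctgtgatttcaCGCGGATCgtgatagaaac

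AT1G07660: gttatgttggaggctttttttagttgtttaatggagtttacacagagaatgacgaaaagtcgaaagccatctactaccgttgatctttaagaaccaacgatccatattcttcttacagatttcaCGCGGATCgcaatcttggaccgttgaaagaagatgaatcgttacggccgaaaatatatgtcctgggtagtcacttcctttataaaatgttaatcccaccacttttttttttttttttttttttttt

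HTR5: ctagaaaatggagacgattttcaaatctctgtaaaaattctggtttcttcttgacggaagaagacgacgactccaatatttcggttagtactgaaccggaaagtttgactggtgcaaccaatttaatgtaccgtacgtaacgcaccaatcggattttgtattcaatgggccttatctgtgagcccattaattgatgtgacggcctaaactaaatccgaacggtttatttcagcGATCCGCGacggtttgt

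HTR8: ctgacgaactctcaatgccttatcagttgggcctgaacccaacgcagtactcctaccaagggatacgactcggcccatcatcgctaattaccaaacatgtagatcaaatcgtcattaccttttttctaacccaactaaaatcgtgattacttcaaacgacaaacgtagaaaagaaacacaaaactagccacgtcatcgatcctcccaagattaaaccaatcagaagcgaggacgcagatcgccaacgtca

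HTA10 and HTR2 hold 2 copies each, the other motif-bearing genes 1. The copy nearest the gene ended 2 bases upstream of the annotated start in HTA10, 9 in HTR5 and 11 in HTR2, and 60 to 118 bases upstream in the other 6 genes. An E2F-type site, read as TTTCCCGC or TTTGGCGC on either strand, was found in 2 of 43 histone windows, those of the H4 genes AT3G45930 and AT3G46320, and in 263 of 27443 windows (0.958%). A match is a match of letters in this window only. Of the 9 histone genes with the octamer, 1 of 9 tested was called between the seed kinds. Of the 34 without it 6 of 28 tested were called. Over all genes tested the share called was 26.6%, and the sets were not tested against each other.

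**Figure D1:**
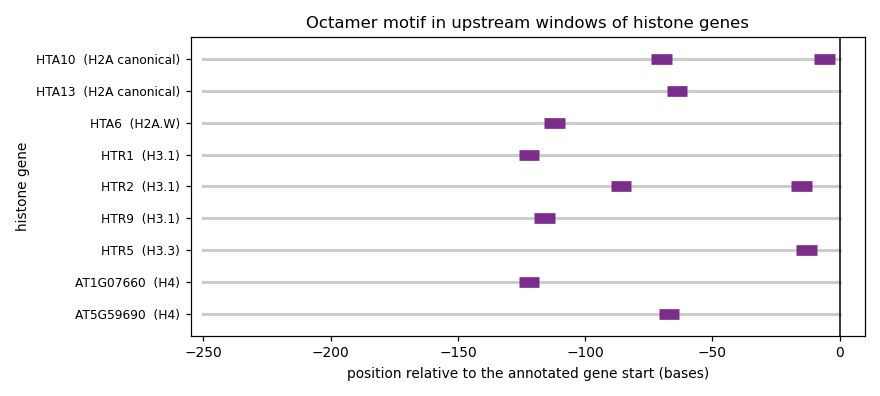
Position of the octamer motif (purple blocks, 8 bases long) in the 250 bases upstream of the annotated start of the 9 histone genes that carry it; the horizontal axis gives bases relative to the start and each row is a gene. HTA10 and HTR2 have 2 blocks each, and the blocks nearest the start are those of HTA10, HTR5 and HTR2.

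Most histone genes were expressed. Of the 43, 37 had enough counts to test and 35 had a mean of at least 1 CPM, that is 1 count in 1e+06 after scaling. At least 1 count was seen for all 43. The 6 genes that were not tested were HTA4 and HTA8 of the H2A.Z class, HTB10 of H2B and the H3 genes HTR6, HTR14 and HTR15. HTR6, HTR14 and HTR15 had 0 counts in all non-green libraries and at most 4 in a green one. The 43 genes together accounted for 0.148% ± 0.0031 of the reads counted in the green set, against 0.147% ± 0.0024 in the other (SD, n = 3). The 5 genes HTR5, HTR4, HTB4, HTA1 and HTR8 held 71.0% to 72.7% of the counts of these 43 genes in each library, and 60.5% to 61.8% when the 6 histone genes outside the description rule were added to the total.

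**Figure D2:**
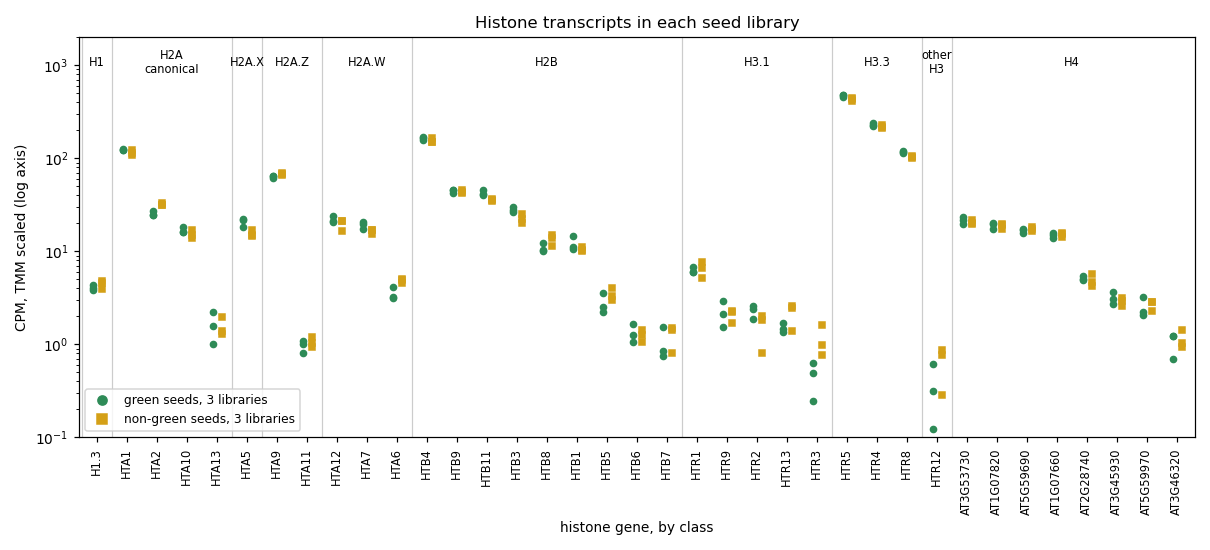
Level of the 37 tested histone genes in each library, in CPM after TMM scaling on a log axis, grouped by class; circles are the 3 green and squares the 3 non-green libraries. HTR5 stands highest, at 414 to 476 CPM, the H3.1 genes lie between 0.247 and 7.74 CPM, and for most genes the circles and squares overlap.

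Per length, the mRNA of H3 came almost wholly from the replacement genes. The H3.3 genes HTR4, HTR5 and HTR8 supplied 97.7%, 97.7% and 98.0% of the summed RPKM of H3 in green libraries and 97.6%, 97.8% and 97.2% in non-green ones. The 5 H3.1 genes, the replication-coupled form, supplied 2.13% ± 0.141 and 2.39% ± 0.282 respectively (SD, n = 3), and these groups overlapped. Ranked by mean RPKM among all 32678 gene models, HTR5 stood at 92 with 437 RPKM, HTR4 at 191 with 223 RPKM and HTR8 at 299 with 154 RPKM. The highest H3.1 gene, HTR1, stood at 7075 with 8.86 RPKM.

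Of the summed RPKM of the 43 genes, H3.3 held 46.3% ± 0.347 in the green set and 45.2% ± 0.283 in the non-green set (SD, n = 3). H2B held 22.2% ± 0.0352 and 22.1% ± 0.498, H2A 22.6% ± 0.160 and 23.3% ± 0.486, and H4 7.495% ± 0.241 and 7.88% ± 0.139. These shares leave out the main H1 genes. With the 6 genes outside the rule added, a total chosen after the values were seen, H3.3 held 40.7% ± 0.286 and 40.3% ± 0.314, and the groups of values overlapped. H1 then held 11.1% ± 0.222 and 9.42% ± 0.158, H2A 20.25% ± 0.164 and 21.2% ± 0.391, and H2B 20.5% ± 0.0267 and 20.9% ± 0.271. Single genes led several classes. HTB4 gave 49.3% ± 1.19 of the transcript of the 10 H2B genes in the green set and 50.2% ± 1.65 in the non-green set, and HTA1 gave 74.6% ± 0.585 and 71.2% ± 0.902 of canonical H2A transcript. HTR5 gave 53.7% of H3.3 transcript in each group.

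**Figure D3:**
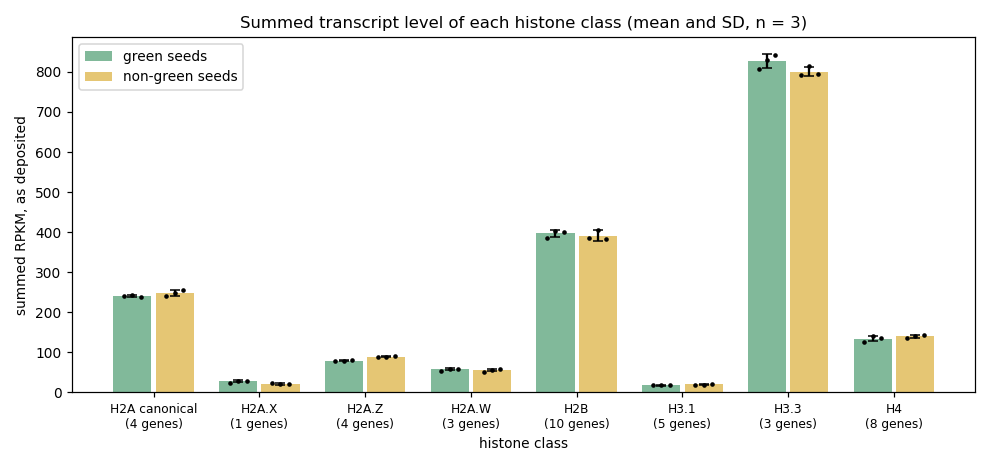
Summed deposited RPKM of the genes of each histone class; bars are means of 3 libraries, error bars SD and dots single libraries. H3.3, from 3 genes, stands at 793 to 842 RPKM, H4, from 8 genes, at 126 to 142 RPKM and H3.1, from 5 genes, at 17.01 to 21.9 RPKM.

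Between the seed kinds most of the 37 tested histone genes of the rule differed little. The main linker genes H1.1 and H1.2, outside the rule, were both called lower and are described below. The 43 genes summed to 1521 ± 49.6 CPM in green and 1430 ± 32.2 CPM in non-green seeds (SD, n = 3), without overlap. Their summed RPKM was 1785 ± 38.4 and 1771 ± 27.0, which overlapped. In whole seeds fewer cells of a type and less transcript per cell cannot be told apart, for these and all later values. edgeR's quasi-likelihood test called 7 of 37 histone genes (18.9%), 2 higher and 5 lower in non-green seeds, where it called 26.6% of all 17239 genes tested, 14.2% higher and 12.5% lower. Over all 50 rows of the rule 43 were tested, with 2 higher and 6 lower. The median log2 fold change of the 37 histone genes was -0.04, against 0.00 over all genes, and their median absolute log2 fold change was 0.13, against 0.19. The CPM of the groups did not overlap for 10 of the 37, against 37.3% of all genes tested. With scaling by total counts alone 7 of the 43 tested rows were called, 5 higher (HTA2, HTA6, HTA9, HTB8 and HTR3) and 2 lower (HTA5 and HTB3). That scaling moved the median log2 fold change of all genes to 0.08, so small log2 fold changes depend on it. The authors' deposited table lists an adjusted p under 0.05 for 6 of the 43 histone genes, all 6 of which were called here.

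Of the H3.3 genes, 2 of 3 were lower in non-green seeds, by small amounts. HTR5 (AT4G40040, chr4:18557149-18558945, minus strand, TAIR10.1) had 452, 476 and 475 CPM in green and 414, 432 and 442 CPM in non-green libraries. Its log2 fold change was -0.12 ± 0.04 (SE, n = 3 per group, edgeR adjusted p = 0.00655). All non-green libraries lay below all green ones. HTR8 (AT5G10980, chr5:3472405-3473570, minus strand) went from 113, 118 and 120 CPM to 105, 103 and 102 CPM, also without overlap. Its log2 fold change was -0.18 ± 0.05 (edgeR adjusted p = 0.00139). HTR4, which lies 42 bases from HTR5 on the same strand of chromosome 4, had 222, 239 and 230 CPM in green and 215, 225 and 214 CPM in non-green libraries, which overlapped (-0.08 ± 0.04, edgeR adjusted p = 0.139).

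These H3.3 calls depended on the scaling. With total counts HTR5 stood at -0.05 (edgeR adjusted p = 0.328) and HTR8 at -0.10 (edgeR adjusted p = 0.0975), and without non-green replicate 1 HTR5 stood at -0.10 (edgeR adjusted p = 0.0574). Over all 12 alternatives the adjusted p ran from 0.00220 to 0.328 for HTR5 and from 0.000953 to 0.0975 for HTR8. The summed H3.3 level was 815 ± 24.4 CPM in the green set and 751 ± 14.5 CPM in the non-green set (SD, n = 3) without overlap, while the deposited RPKM gave 827 ± 17.4 and 801 ± 11.7, which overlapped. HTR4, HTR5 and HTR8 share no stretch of 50 bases with each other or with any other annotated transcript. Only exact matches were counted, so this does not show how reads were divided between similar genes.

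The H3.1 genes were low in both groups. HTR1 had 111, 95 and 99 counts in green and 90, 114 and 130 in non-green libraries (0.05 ± 0.16, edgeR adjusted p = 0.859). HTR2, HTR9 and HTR13 had 14 to 47 counts per library and log2 fold changes of -0.55 ± 0.32, -0.09 ± 0.29 and 0.51 ± 0.32, none of them called. HTR3 (AT3G27360, chr3:10129105-10129937, minus strand) was called higher, with 4, 10 and 8 counts in green and 17, 28 and 13 in non-green libraries (1.303 ± 0.48, edgeR adjusted p = 0.0328). Its call was the least stable of the histone calls, kept in 5 of the 11 alternatives that tested it, with adjusted p from 0.0221 to 0.262. It was lost with DESeq2 (0.0842), with no filter on low counts (0.0545), and when any of 4 libraries was left out, green 1 (0.187), green 3 (0.0763), non-green 1 (0.0569) or non-green 2 (0.262). HTR3 overlaps the succinate dehydrogenase gene SDH2-1 by 328 bases on the same strand in TAIR10.1, where reads cannot be told apart, and SDH2-1 was at -0.12 ± 0.09 (edgeR adjusted p = 0.356). As a class the H3.1 genes summed to 12.4, 13.8 and 12.0 CPM in green and 13.0, 12.2 and 15.1 CPM in non-green libraries, which overlapped.

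HTR12, the centromeric H3 that marks the site where chromosomes attach to the spindle, had 10, 5 and 2 counts in green and 5, 15 and 13 in non-green libraries (0.86 ± 0.57, edgeR adjusted p = 0.293). The groups overlapped, and so few counts leave a wide error.

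Among 10 tested H2A genes 1 was higher and 1 lower (20%, against 26.6% of all genes tested), and they belong to different forms. HTA2 (AT4G27230, chr4:13637236-13638449, minus strand), a canonical H2A gene, had 24.6, 26.9 and 24.5 CPM in green and 31.2, 33.5 and 31.2 CPM in non-green libraries (0.34 ± 0.08, edgeR adjusted p = 0.000388). HTA5 (AT1G08880, chr1:2846894-2848100, minus strand) encodes H2A.X, the form that is phosphorylated around DNA breaks. It had 18.3, 22.2 and 21.8 CPM in green and 17.1, 14.9 and 14.5 CPM in non-green libraries (-0.42 ± 0.10, edgeR adjusted p = 0.000419). Neither pair of groups overlapped, and both calls held in 12 of 12 alternatives. The main canonical gene HTA1 had 121, 126 and 122 CPM against 109, 114 and 122 CPM, with overlap (-0.10 ± 0.04, edgeR adjusted p = 0.108, and 0.0282 without non-green replicate 3). HTA10 and HTA13, the other canonical genes, stood at -0.15 ± 0.10 and -0.04 ± 0.35 and were not called.

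H2A.Z, a variant found near gene starts, rested on HTA9, which had 62.1, 63.9 and 65.1 CPM in green and 67.3, 66.6 and 69.6 CPM in non-green libraries. The groups did not overlap, but the difference was small (0.09 ± 0.05, edgeR adjusted p = 0.228), and it was called only with scaling by total counts (0.17, adjusted p = 0.0165, range over 12 alternatives 0.0165 to 0.471). By length, H2A.Z genes gave 19.6% ± 0.362 of H2A transcript in the green set and 21.5% ± 0.414 in the non-green set (SD, n = 3), and HTA5 gave 6.69% ± 0.513 and 5.16% ± 0.645. With HTA3, the H2A.X gene outside the rule, added, H2A.X gave 8.57% ± 0.399 and 7.11% ± 1.00, and the groups of values overlapped. H2A.Z then gave 19.2% ± 0.395 and 21.0% ± 0.319, without overlap. These shares do not depend on the scaling of the libraries. Genes of H2A.W, the form of silent heterochromatin, were not called. HTA12 stood at -0.16 ± 0.09 and HTA7 at -0.22 ± 0.10 (edgeR adjusted p = 0.0951, and 0.0428 without green replicate 1). HTA6, with 50 to 84 counts per library, stood at 0.47 ± 0.20 (edgeR adjusted p = 0.0740), which was called in 2 of 12 alternatives (adjusted p 0.0332 with total counts and 0.0433 without green replicate 3, range 0.0332 to 0.208).

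Of 9 tested H2B genes 2 were lower and 0 higher (22.2%, against 26.6% of all genes tested). HTB3 (AT2G28720, chr2:12326808-12327808, plus strand) had 28.2, 29.9 and 26.8 CPM in green and 25.1, 20.4 and 22.3 CPM in non-green libraries (-0.32 ± 0.08, edgeR adjusted p = 0.00170), a call kept in 12 of 12 alternatives. HTB11 (AT3G46030, chr3:16913384-16914131, minus strand) had 40.6, 45.8 and 41.0 CPM against 35.1, 36.1 and 35.97 CPM (-0.25 ± 0.07, edgeR adjusted p = 0.00263). Both genes were without overlap between the groups. HTB11 lost its call with total counts (0.0523) and without green replicate 2 (0.0521), within a range of 0.00212 to 0.0523 over 12 alternatives. HTB4, the most abundant H2B gene per length, had 156, 164 and 168 CPM against 150, 166 and 149 CPM (-0.07 ± 0.04, edgeR adjusted p = 0.271), while total counts turned its sign, to 0.01.

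HTB8 is a divergent H2B that has been described in dry seeds and in sperm. It was named here after its values were seen. It had 12.2, 10.1 and 10.5 CPM in green and 11.5, 14.9 and 13.8 CPM in non-green libraries, and only the lowest non-green library fell within the range of the green ones. Its log2 fold change was 0.29 ± 0.12 (edgeR adjusted p = 0.0627). It was called in 3 of 12 alternatives, with total counts (0.0158) and when green library 1 (0.0328) or non-green library 1 (0.0211) was left out, within a range of 0.0158 to 0.301. It gave 3.68% ± 0.508 of the transcript of the 10 H2B genes per length in the green set and 4.79% ± 0.501 in the non-green set (SD, n = 3).

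No H4 gene differed by more than the test could call. None of 8 was called at the adjusted threshold or had an unadjusted p under 0.05, and none was called by DESeq2 or any of the other alternatives. Their log2 fold changes ran from -0.13 to 0.11. The most abundant by CPM, AT3G53730, had 318, 378 and 358 counts in green and 339, 346 and 367 in non-green libraries (-0.08 ± 0.09, edgeR adjusted p = 0.567). Summed, the 8 genes had 78.3, 89.3 and 84.5 CPM in green and 80.1, 83.8 and 86.2 CPM in non-green libraries, which overlapped. Errors of single H4 genes reached 0.40 for AT3G46320, which had 11 to 24 counts per library, so a change of moderate size in it was not detectable at this depth.

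**Figure D4:**
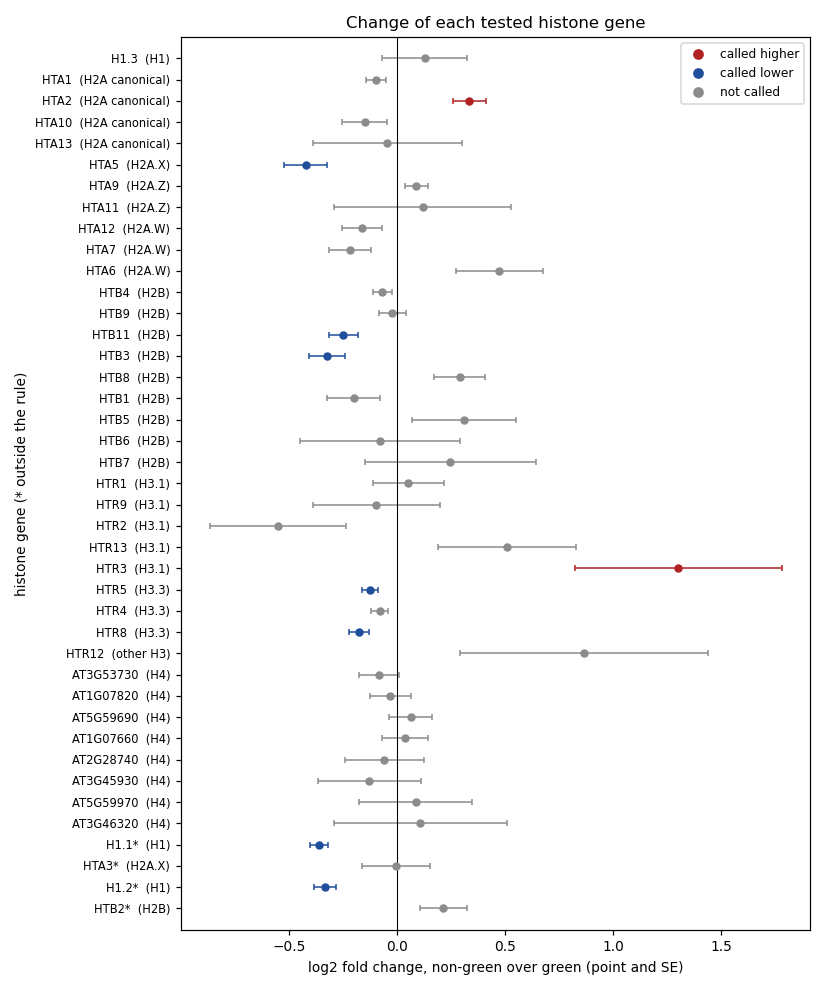
Log2 fold change of non-green over green seeds (points, with SE bars) for the 37 tested histone genes and, marked with an asterisk, 4 tested histone genes outside the description rule; red is called higher, blue called lower and grey not called at an edgeR adjusted p of 0.05. Called points lie at most 0.42 from 0 except HTR3, at 1.303 with a wide error, and the H4 points lie around 0.

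The linker histone H1.3, which is known to be induced by stress and low light, had 62, 65 and 71 counts in green and 84, 79 and 66 in non-green libraries (0.13 ± 0.20, edgeR adjusted p = 0.699), with overlap. The main linker histone genes lie outside the description rule, being described in the table as winged-helix factors, and were looked at after their values were seen. H1.1 had 186, 189 and 187 CPM in green and 140, 151 and 147 CPM in non-green libraries (-0.36 ± 0.04, edgeR adjusted p = 1.02e-11). H1.2 had 78.9, 81.3 and 82.1 CPM against 61.9, 65.1 and 65.5 CPM (-0.33 ± 0.05, edgeR adjusted p = 1.55e-07). Both were lower in all non-green libraries than in any green one, and both calls held in 12 of 12 alternatives, at -0.39 to -0.29 for H1.1 and -0.35 to -0.26 for H1.2. The H2A.X gene HTA3 (-0.01 ± 0.16) and the H2B gene HTB2 (0.21 ± 0.11, called with total counts alone, adjusted p = 0.0406) were not called. HTR11 had 31 counts in all libraries together, and HTR10, the H3 of sperm cells, had 0.

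Of the 7 rows that only share the wording, 6 were tested and 1 was called. LEC1, which encodes a subunit of the transcription factor NF-Y and directs embryo development, had 24, 34 and 29 counts in green and 32, 46 and 35 in non-green libraries (0.30 ± 0.30, edgeR adjusted p = 0.530). AT5G19490 stood at 0.17 ± 0.36 and AT5G50930, with 4 to 6 counts per library, was not tested. Of the 4 genes described as SET7/9 methyltransferases, AT4G17080 was lower, with 242, 204 and 203 counts against 165, 153 and 217 (-0.36 ± 0.12, edgeR adjusted p = 0.0226). Its groups overlapped through non-green replicate 3. Its call was kept in 7 of 12 alternatives, with adjusted p from 0.00113 to 0.171. It was lost with DESeq2 (0.0792), with total counts (0.0801) and when green library 1 (0.170) or non-green library 1 (0.126) or 2 (0.171) was left out. AT1G21920, AT1G77660 and AT2G35170 stood at -0.20 ± 0.11, -0.19 ± 0.15 and 0.39 ± 0.35 and were not called.

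Gene structure followed the classes. All 10 H2B and all 5 H3.1 genes have 1 exon in every annotated transcript, as do 5 of 8 H4 genes, whereas the 3 H3.3 genes have 3 to 5 exons and the H2A genes 2 or 3. Of the 43 histone genes 27 share no stretch of 50 bases with the transcripts of another gene, and 16 share some, counting exact matches only. Of the called genes HTA2, HTA5, HTB3, HTR5 and HTR8 share none. HTB11 shares 1.86% of its stretches with HTB9, and HTR3 shares 35.6% with SDH2-1. HTB10 lies wholly within HTA12 on the opposite strand in TAIR10.1. The RPKM imply counted lengths of 738 bases for HTA12 and 399 for HTB10. Whether the counted model of HTA12 covers HTB10 is not known. If it does and strand was not used, their counts cannot be told apart. The H4 genes AT3G45930 and AT3G46320 share 25.7% and 27.9% of their stretches with each other, and AT1G07660 and AT1G07820 24.9% and 18.4%.

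Of 25 genes of DNA replication and S phase 20 were tested, with 1 higher and 1 lower (10% called, against 26.6% of all genes tested). TOP2, the topoisomerase that untangles chromosomes, had 2.16, 2.00 and 2.32 CPM in green and 1.44, 0.992 and 0.715 CPM in non-green libraries (-1.04 ± 0.35, edgeR adjusted p = 0.0178). TSO2, a subunit gene of ribonucleotide reductase that supplies DNA building blocks, had 2.35, 2.13 and 2.14 CPM against 3.75, 2.39 and 4.23 CPM (0.65 ± 0.25, edgeR adjusted p = 0.0497). TOP2 was called in 9 of 12 alternatives, being lost without green replicate 3 or non-green replicates 2 and 3 (0.0619, 0.0506 and 0.104), and TSO2 in 4 of 12. FEN1, a flap endonuclease gene, stood at 0.21 ± 0.09 (edgeR adjusted p = 0.0808, and 0.0154 with total counts and 0.0214 without non-green replicate 3). The summed level of these genes was 104 to 110 CPM in green and 103 to 107 CPM in non-green libraries. A mean of at least 1 CPM was reached by 15 of the 25. The median absolute log2 fold change of the 20 tested was 0.27, against 0.19 over all genes tested. Their low share called therefore does not mean smaller changes.

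Of 24 genes of mitosis and cytokinesis 12 had enough counts to test, and edgeR called 0, against 26.6% of all genes tested. An unadjusted p under 0.05 was seen for 2 of them. DESeq2 called 0 of them. Only 8 of the 24 had a mean of at least 1 CPM. The median absolute log2 fold change of the 12 tested was 0.33, against 0.19 over all genes tested. The lack of calls therefore does not mean smaller changes. The 3 with the smallest adjusted p were AUR2, KN and CDKB2;1, at 0.37 ± 0.17, 0.43 ± 0.21 and -0.77 ± 0.41. AUR2, an Aurora kinase gene, was called in 1 of 12 alternatives (total counts, 0.0499), and KN, the syntaxin of the cell plate, in 1 of 12 (without non-green replicate 3, 0.0365). CYCB1;1, the mitotic cyclin used as a marker of division and named here after its values were seen, had means of 0.104 and 0.116 CPM in green and non-green seeds, below the 0.173 to 0.188 CPM that 3 counts are worth in a library.

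Of 18 histone chaperones 17 were tested, with 0 higher and 3 lower (0 and 2 by DESeq2). The share called by edgeR was 17.6%, against 26.6% of all genes tested, 14.2% higher and 12.5% lower. SSRP1, a subunit of the FACT complex that opens nucleosomes for transcription, had 51.7, 56.5 and 52.3 CPM against 45.0, 45.9 and 43.2 CPM (-0.26 ± 0.06, edgeR adjusted p = 0.000417). NAP1;2, a carrier of H2A and H2B, stood at -0.22 ± 0.06 (edgeR adjusted p = 0.00246) and ATRX, of the H3.3 deposition route, at -0.17 ± 0.07 (edgeR adjusted p = 0.0459). ATRX was called in 3 of 12 alternatives (0.339 with total counts), and NAP1;2 lost its call with total counts (0.0702). HIRA, the chaperone of H3.3, was named after its values were seen and was not called (-0.22 ± 0.10, edgeR adjusted p = 0.103).

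Of 11 remodelling genes 1 was called (9.09%, against 26.6% of all genes tested). INO80, which slides and edits nucleosomes, was lower (-0.22 ± 0.06, edgeR adjusted p = 0.00277, and 0.0759 with total counts). BRM stood at -0.12 ± 0.05 (0.0342 without green replicate 2) and CHR17 at 0.19 ± 0.12. Of 26 histone modifier genes 25 were tested, with 1 higher and 3 lower (0 and 2 by DESeq2). The share called by edgeR was 16%, against 26.6% of all genes tested. Of the 4 plant-specific HD2 histone deacetylase genes 2 were lower, 1 was higher and HD2A was not called (-0.16 ± 0.12, edgeR adjusted p = 0.389). HD2B had 70.5, 64.4 and 69.1 CPM in green and 56.1, 54.0 and 55.7 CPM in non-green libraries (-0.30 ± 0.06, edgeR adjusted p = 7.14e-06), and HD2D stood at -0.57 ± 0.17 (edgeR adjusted p = 0.00866). HD2C was higher, from 41.5, 45.7 and 45.3 CPM to 48.5, 52.3 and 49.4 CPM (0.18 ± 0.06, edgeR adjusted p = 0.0203). HD2B kept its call in 12 of 12 alternatives. HD2D lost it without non-green replicate 1 (0.128), and HD2C with DESeq2 (0.0666) and when green library 1 (0.149) or non-green library 2 (0.123) was left out. Named only to complete the count, the third lower gene was the acetyltransferase gene HAG1 (-0.33 ± 0.13, edgeR adjusted p = 0.0497).

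**Figure D5:**
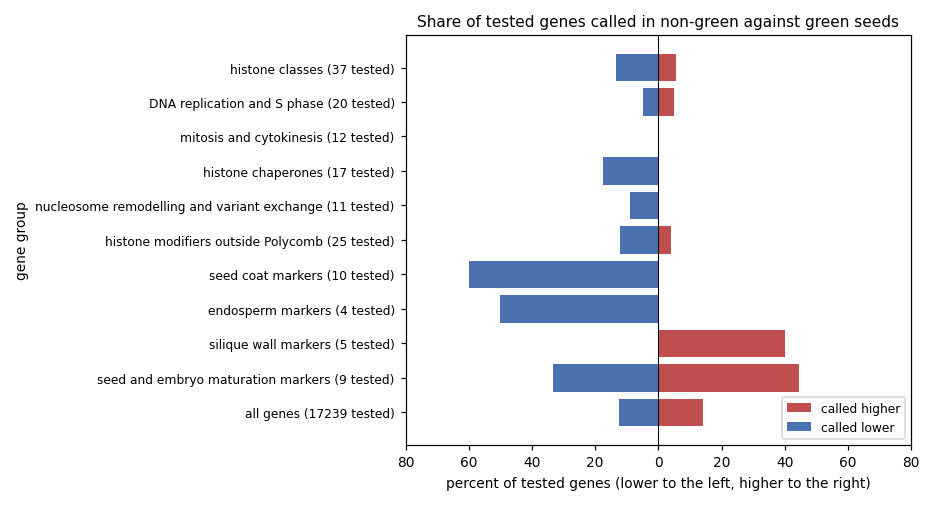
Percent of the tested genes of each group called higher (red, to the right) or lower (blue, to the left) in non-green seeds at an edgeR adjusted p of 0.05, with the number tested beside each name. Histone genes and genes of replication, division and chromatin lie below the 26.6% of all genes that were called, and the marker groups of seed coat, endosperm, silique wall and maturation above it. A share called depends on counts as well as on the size of changes, and many replication and division genes had few counts.

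Markers of the seed coat, the endosperm and the silique wall were read in the same libraries. Over all genes tested 12.5% were called lower and 14.2% higher, 26.6% in either direction. Of 10 tested seed coat markers 6 were lower and 0 higher, with a summed level of 1215 to 1271 CPM in green and 908 to 932 CPM in non-green libraries, and TT12 had 1 count in all libraries. Of 4 tested endosperm markers 2 were lower, MEA and ALE1, with PHE1 and MINI3 at 0 counts in all libraries. The summed endosperm level, nearly all of it EPR1, was 12615 to 14578 CPM and 13382 to 14873 CPM. Of 5 tested silique wall markers 2 were higher (0 by DESeq2), FIL at 0.22 ± 0.07 and YAB3 at 0.22 ± 0.08. SHP1 stood at -0.30 ± 0.12, ALC at -0.61 ± 0.36 and SHP2 at 0.04 ± 0.15, none of them called. The silique wall markers summed to 76.3 to 83.2 CPM in green and 79.9 to 96.7 CPM in non-green libraries. Most of each sum came from FIL (means of 33.1 and 38.7 CPM) and YAB3 (24.5 and 28.6 CPM). FUL was at 0, and IND had 5 counts in all, with 0 in each non-green library. Whether silique wall tissue was in the libraries was not tested. The part of these tissues in the histone values was not tested.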

How the data were processed

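RNA was sequenced from 3 green and 3 non-green seed libraries. Bowtie 0.12.2 and TAIR10 are named in the submitters' processing notes; the sources used here do not give the counter, nor how strand and multiply matching reads were treated. The authors deposited counts per gene model and RPKM values for each library. RPKM, used to compare levels between genes, follows from the counts, since the gene length it implies agreed between libraries within 0.01 of itself in 100% of 17136 gene models checked. Also deposited, in the authors' own comparison, are a mean signal, log2 fold changes, their error and test statistic as scores, and p-values.

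Counts were tested with edgeR 4.0.16 in R 4.3.3 (filterByExpr, TMM factors 0.959 to 1.04, quasi-likelihood test, 17239 genes, non-green against green); a call is a Benjamini-Hochberg adjusted p under 0.05 over all of them. Errors of log2 fold changes were taken from the F statistic, and the common biological coefficient of variation was 5.68% between libraries. DESeq2 1.42.0 was an alternative. Counts per 1e+06 (CPM) are after TMM scaling. Libraries of one group differed by more than sampling noise (chi-square per gene 2.46 to 3.05).

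Named genes are the called members, the most abundant and the most changed member of each class, and chlorophyll synthase. From each pathway list up to 3 genes of lowest adjusted p were added, with the first called in the minority direction. Other genes given, such as HTR4, HTA7, HTA10, HD2A, MEA and FIL, fall outside this rule. They were named after their values were seen, whether or not the text marks it. Members and lists were chosen with earlier results of these data known. Sequences and positions are from RefSeq TAIR10.1, whose table holds 97.7% of the identifiers. The alternatives are given in the closing section.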

Additional observations from a re-analysis of the deposited data

How the results depend on the processing

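Alternatives were DESeq2, DESeq2 size factors in edgeR, scaling by total counts, no filter on low counts, a filter at a mean count of 20, the replicate block, and leaving out each library. Histone rows called numbered 6 to 9 over all of these, against 8, and genes called 3673 (DESeq2) to 4643 (replicate block), against 4593; without single libraries they numbered 6 to 9 and 3968 to 4150. With scaling by total counts higher genes made up 3266 and lower genes 1364 of 4630 calls, against 2444 and 2149, and 4 of the 7 histone rows called there were also called with TMM. Summed log2 ratios moved beyond their spread with total counts and with RPKM. RPKM scales by the same total count and by gene length, so these settings are not independent of each other. H2A moved to 0.037 and 0.033 from -0.04, H2B to -0.017 and -0.019 from -0.09, H3.3 to -0.044 and -0.047 from -0.12, and all classes to -0.014 and -0.011 from -0.09. Leaving out the most abundant member of a class moved none beyond its spread. Without single libraries these 4 ratios ran from -0.07 to -0.02, -0.12 to -0.07, -0.14 to -0.10 and -0.11 to -0.07, H3.1 from -0.02 to 0.14 and H4 from -0.06 to 0.03. Signs turned for HTB4 (0.0079) and HTA3 (0.071) with total counts, and when single libraries were left out for HTR1 (-0.089 to 0.193) and HTA3 (-0.152 to 0.068), none of them called. The cause was not tested. Adding the 6 histone genes outside the rule, an alternative chosen after seeing the data, took the H3.3 share from 46.3% to 40.7% in green seeds. The replicate block called 8 histone rows and changed the call of TSO2 alone among the named genes (0.0537); same-numbered libraries did not deviate together (correlations -0.0014 to 0.0133), so the numbers are not taken as pairs. Depth limits genes with few counts, such as HTR3 and HTR12.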
